A study of Mus musculus with 9 samples.

Results

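The 10 genes described here are the cadherins Cdh1 and Cdh2, the epithelial adhesion gene Epcam, the mesenchymal genes Vim and Fn1, and the transcription factor genes Snai1, Snai2, Twist1, Zeb1, and Zeb2, which are genes commonly followed in an epithelial-to-mesenchymal transition (EMT). They were selected by gene symbol, and all 10 were present among the 25239 gene symbols counted. RNA-seq was performed on mouse E14 embryonic stem cells (ESCs) of strain 12910la, with 3 libraries for each of 3 genotypes. Control cells were Rbbp4+/+. The mutant lines Rbbp4Ins/Ins and Rbbp4Ins/Del were made with CRISPR-Cas9, and each is 1 clone. Rbbp4Ins/Ins carries an in-frame insertion on both alleles, whereas Rbbp4Ins/Del carries that insertion on 1 allele and an in-frame deletion on the other. RBBP4 is a histone-binding subunit of Polycomb repressive complex 2 and of histone deacetylase complexes. All lines grew in serum medium with leukemia inhibitory factor, and the labels name no treatment. Because the labels do not say that libraries of a genotype came from separate cultures, p-values measure only the spread between these libraries. With 1 clone per mutant line, an effect of the mutation and a trait of the clone cannot be told apart.

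During EMT, epithelial cells loosen their contacts and become migratory, as at the primitive streak of the gastrulating embryo. In the cadherin switch, E-cadherin, encoded by Cdh1, gives way to N-cadherin, encoded by Cdh2, while the intermediate filament vimentin and the matrix protein fibronectin accumulate. The zinc finger repressors Snail (Snai1), Slug (Snai2), ZEB1, and ZEB2 bind E-boxes of the letters CACCTG in the promoters of epithelial genes, and Twist1 is a basic helix-loop-helix factor that also acts in EMT. Mouse ESCs grow as compact colonies held together by E-cadherin.

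Cdh2 and Zeb2 had the largest differences among these genes and fell in both mutants, Cdh2 16.1-fold in each and Zeb2 9.23-fold in Rbbp4Ins/Ins and 8.95-fold in Rbbp4Ins/Del. Twist1 and Vim fell by about 2-fold in both mutants, and Epcam fell less. Snai1 rose in both mutants, although its call in Rbbp4Ins/Ins was lost without single libraries. Cdh1 fell and Fn1 rose slightly in Rbbp4Ins/Ins, neither was called in Rbbp4Ins/Del, and both differed between the mutants. Zeb1 and Snai2 passed the test in neither mutant.

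Promoter windows of 250 bases before the annotated start came from RefSeq on GRCm38.p6, in which 5 of the 10 genes had an entry. The 4 windows printed are those of genes that moved in both mutants, 2 transcription factor genes that fell (Zeb2 and Twist1), 1 that rose (Snai1), and the epithelial gene Epcam. Each is written 5′ to 3′ on the strand of its gene, and capitals mark CACCTG or its reverse complement CAGGTG. The windows are chr2:167537945-167538194 on the plus strand for Snai1, chr17:87635729-87635978 on the plus strand for Epcam, chr12:33957421-33957670 on the plus strand for Twist1, and chr2:45117443-45117692 on the minus strand for Zeb2, which is the first of 4 Zeb2 starts in the table. Bases shortly after this Zeb2 start were not found in a GENCODE M21 transcript of Zeb2, unlike those after the other Zeb2 starts.
Snai1: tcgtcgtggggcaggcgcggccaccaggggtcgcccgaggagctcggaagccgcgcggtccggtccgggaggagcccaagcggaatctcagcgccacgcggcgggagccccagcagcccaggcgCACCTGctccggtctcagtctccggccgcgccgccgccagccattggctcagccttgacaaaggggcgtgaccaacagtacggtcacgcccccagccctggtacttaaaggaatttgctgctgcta
Epcam: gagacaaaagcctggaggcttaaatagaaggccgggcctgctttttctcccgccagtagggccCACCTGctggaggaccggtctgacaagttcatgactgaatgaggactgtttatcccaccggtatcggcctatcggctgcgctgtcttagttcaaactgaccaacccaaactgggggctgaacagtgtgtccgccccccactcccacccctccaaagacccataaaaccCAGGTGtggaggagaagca
Twist1: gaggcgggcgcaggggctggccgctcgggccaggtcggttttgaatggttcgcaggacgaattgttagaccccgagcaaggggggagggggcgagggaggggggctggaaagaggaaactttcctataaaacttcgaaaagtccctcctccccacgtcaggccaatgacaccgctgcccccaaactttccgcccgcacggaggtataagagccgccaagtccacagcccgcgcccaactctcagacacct
Zeb2: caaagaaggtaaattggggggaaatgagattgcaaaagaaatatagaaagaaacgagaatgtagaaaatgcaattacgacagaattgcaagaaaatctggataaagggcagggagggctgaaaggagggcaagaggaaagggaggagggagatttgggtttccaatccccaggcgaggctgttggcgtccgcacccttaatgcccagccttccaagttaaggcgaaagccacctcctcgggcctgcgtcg

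Epcam held the E-box letters at 2 places, with their first bases 187 and 19 bases before the start, and Snai1 held them at 1 place, 126 bases before the start. The Twist1 window and the windows of Vim and of all 4 Zeb2 starts held none, and the Vim window, which overlaps an annotated Vim exon, is not printed. Of all 32841 windows in the table, 17.2% held these letters on either strand and 2.06% held them at 2 or more places. The Snai1 and Twist1 windows were rich in CG dinucleotides, with 27 and 18 against a median of 6 over all windows, and their GC content was 70% and 62.4% against a median of 52.4%. Epcam and Zeb2 had 8 and 9 CG dinucleotides. Such letters are a description of the sequence and not a measured binding site. Cdh1, Cdh2, Fn1, Snai2, and Zeb1 had no entry.

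The mouse build GRCm38 (mm10) and the GENCODE M21 annotation place these protein-coding genes as follows. Cdh1 lies on the plus strand of chromosome 8 from 106603351 to 106670246. Cdh2 lies on the minus strand of chromosome 18 from 16588877 to 16809246, and Zeb1 on the plus strand of that chromosome from 5591860 to 5775467. Epcam lies on the plus strand of chromosome 17 from 87635979 to 87651129. Chromosome 2 holds Vim on the plus strand from 13573927 to 13582826, Snai1 on the plus strand from 167538195 to 167542814, and Zeb2 on the minus strand from 44983632 to 45117395. Fn1 is on the minus strand of chromosome 1 from 71585520 to 71653200, Snai2 on the plus strand of chromosome 16 from 14705852 to 14709385, and Twist1 on the plus strand of chromosome 12 from 33957671 to 33959829. Exons of the opposite strand overlap 2.5% of the exonic bases of Fn1 (Apol7d, 3 to 7 reads per library), 3.27% of those of Zeb2 (Zeb2os, 0 to 4 reads), and 1.93% of those of Zeb1 (Gm10125, 0 to 1 reads).

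The libraries held 15838064 to 21366868 counted reads, and 14125 genes passed edgeR's filter on low counts. Levels are given as normalized counts, which are reads scaled to a common effective library size, and a gene is called when edgeR's quasi-likelihood test gives a Benjamini-Hochberg adjusted p of at most 0.01 over all tested genes. The mutated gene Rbbp4 had a mean of 10005 normalized counts in the control, 5604 in Rbbp4Ins/Ins, and 10359 in Rbbp4Ins/Del, with log2 fold changes of -0.84, which was called, and 0.05, which was not. These are RNA levels and do not measure the protein. By Western blot, the paper reported lower levels of the mutant RBBP4 proteins. All 10 listed ESC markers were detected in each library, and their summed normalized count was 101153 to 105814 in the control, 127675 to 129592 in Rbbp4Ins/Ins, and 126288 to 129674 in Rbbp4Ins/Del. In bulk RNA, fewer cells of a type and less RNA per cell cannot be told apart.

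All 10 genes passed the filter, and Cdh2 and Zeb2 still had 15 to 26 reads in each mutant library. In Rbbp4Ins/Ins, 8 of the 10 were called against the control, 2 higher and 6 lower, where 58.4% of all tested genes were called (29% higher and 29.4% lower). In Rbbp4Ins/Del, 6 of the 10 were called, 1 higher and 5 lower, where 62.5% of all tested genes were called (30.6% higher and 31.9% lower). The count in either direction was close to the background in Rbbp4Ins/Del, whereas lower calls were above their share of all tested genes in both mutants. Counts of calls over only 10 genes say little about the set, and the results lie in its single genes. Mutant and control libraries did not overlap for 8 of the genes in Rbbp4Ins/Ins and for 6 in Rbbp4Ins/Del, against 69.1% and 72.8% of all tested genes. Falls of over 2-fold were found for 4 of the 10 genes in Rbbp4Ins/Ins and for 3 in Rbbp4Ins/Del, against 8.96% and 10.2% of all tested genes. The median log2 fold change of the 10 genes was -0.34 in Rbbp4Ins/Ins and -0.23 in Rbbp4Ins/Del, beside 0.00 and -0.01 over all genes. The 10 genes were chosen with earlier results of these data known, so an excess over all tested genes is only descriptive. Both comparisons use the same 3 control libraries.

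**Figure D1:**
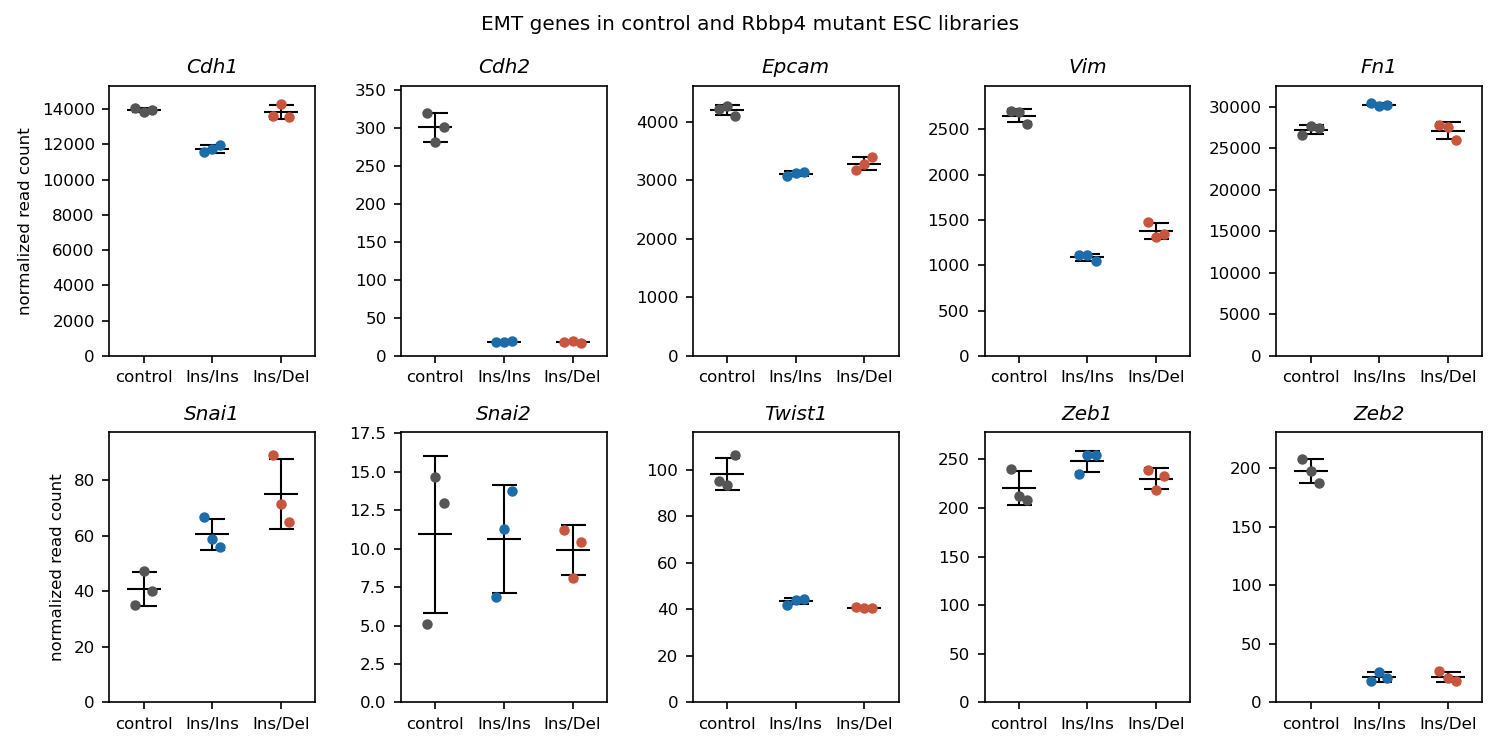
Normalized read count (vertical axes from 0) of each of the 10 genes in the 3 control, 3 Rbbp4Ins/Ins, and 3 Rbbp4Ins/Del libraries; points are libraries, and the wide bar and whiskers give the mean ± SD. The mutant points of Cdh2 and Zeb2 lie between 17.4 and 26.6, far below control points at 187.3 to 319.7, while those of Cdh1, Fn1, and Zeb1 stay near the control level.

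Cdh1, the main cadherin of ESC colonies, had control levels of 14041, 13836, and 13934 normalized counts. The Rbbp4Ins/Ins libraries had 11549.9, 11741, and 11982 normalized counts of Cdh1, and the Rbbp4Ins/Del libraries had 13634, 14310.4, and 13573. Every Rbbp4Ins/Ins library was thus below every control library, whereas the Rbbp4Ins/Del and control libraries overlapped. Relative to the control, Cdh1 fell by 15.7% in Rbbp4Ins/Ins, a log2 fold change of -0.25 (standard error 0.0272, edgeR quasi-likelihood test with Benjamini-Hochberg adjusted p = 3.4e-10). The log2 fold change in Rbbp4Ins/Del was -0.01 with a 95% interval from -0.065 to 0.045 (edgeR quasi-likelihood test, Benjamini-Hochberg adjusted p = 0.76), and its sign depended on the processing.

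Cdh2, the mesenchymal and neural cadherin, stood at 319.7, 281.8, and 302.1 normalized counts in the control. It had 18, 18.1, and 20.1 normalized counts in Rbbp4Ins/Ins and 18.4, 19.9, and 17.4 in Rbbp4Ins/Del, so that the highest mutant library lay far below the lowest control library. As reads, these were 269 to 374 in the control, 16 to 21 in Rbbp4Ins/Ins, and 15 to 22 in Rbbp4Ins/Del. Cdh2 fell 16.1-fold in Rbbp4Ins/Ins, with a 95% interval from 13.1-fold to 19.8-fold (log2 fold change -4.01, standard error 0.148, edgeR quasi-likelihood test with Benjamini-Hochberg adjusted p = 1.7e-24). The fall in Rbbp4Ins/Del was also 16.1-fold, with a log2 fold change of -4.01 and the same standard error (edgeR quasi-likelihood test, Benjamini-Hochberg adjusted p = 1.5e-24). Of 12712 tested genes that averaged more than 20 normalized counts, Cdh2 ranked 31st from the lowest log2 fold change in Rbbp4Ins/Ins and 48th in Rbbp4Ins/Del.

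Epcam encodes an adhesion protein of epithelia and pluripotent cells. Its normalized counts were 4219.9, 4273, and 4098 in the control, 3072, 3127, and 3139.7 in Rbbp4Ins/Ins, and 3180.3, 3278, and 3394 in Rbbp4Ins/Del. All mutant libraries were below all control libraries. It fell by 25.9% in Rbbp4Ins/Ins (log2 fold change -0.43, standard error 0.0322, edgeR quasi-likelihood test with Benjamini-Hochberg adjusted p = 7.8e-15). In Rbbp4Ins/Del, Epcam fell by 21.8% (log2 fold change -0.35, standard error 0.0321, adjusted p = 1.5e-12 by the same edgeR test).

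Because gene lengths differ, the proportion of N-cadherin to E-cadherin RNA was taken per exonic base. The level of Cdh2 was 1.23% ± 0.0681 of that of Cdh1 in the control (SD, n = 3), 0.0902% ± 0.00428 in Rbbp4Ins/Ins (SD, n = 3), and 0.0759% ± 0.00312 in Rbbp4Ins/Del (SD, n = 3). All mutant ratios, 0.0725% to 0.0951%, were below the lowest control ratio of 1.16%. Vim stood at 29.2% ± 0.34 of the Epcam level per exonic base in the control (SD, n = 3), at 16.2% ± 0.73 in Rbbp4Ins/Ins (SD, n = 3), and at 19.5% ± 1.74 in Rbbp4Ins/Del (SD, n = 3). These ratios follow from the counts already given and were not tested again. The share of N-cadherin RNA was thus lower in both mutants than in the control, and Epcam was lower with it.

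**Figure D2:**
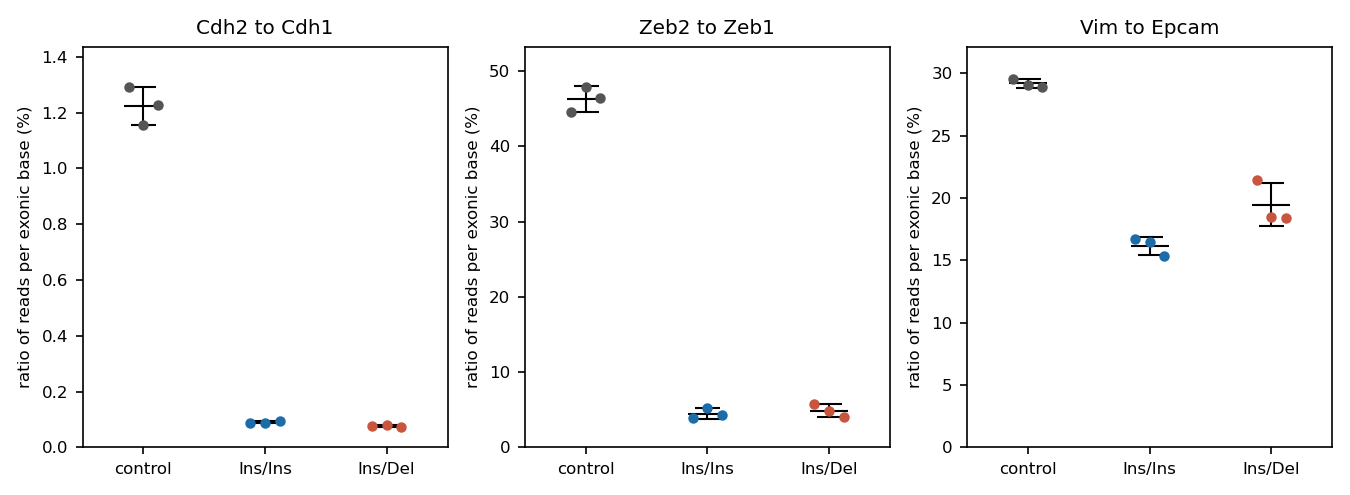
Ratios of length-scaled levels (percent, vertical axes from 0) of Cdh2 to Cdh1, Zeb2 to Zeb1, and Vim to Epcam in the 3 libraries of each genotype; points are libraries, and bars with whiskers give the mean ± SD. All 6 mutant points lie below all 3 control points in each panel, and the Cdh2 to Cdh1 ratio goes from 1.23% in the control to 0.0902% and 0.0759%.

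Vim, the type III intermediate filament of mesenchymal cells, had 2698, 2686, and 2563 normalized counts in the control. Both mutants were lower, at 1110.25, 1112, and 1041 in Rbbp4Ins/Ins and at 1475, 1312, and 1349 in Rbbp4Ins/Del. No libraries of different genotypes overlapped, and Rbbp4Ins/Del lay between the other lines. The fall was 2.44-fold in Rbbp4Ins/Ins (95% interval 2.29-fold to 2.59-fold, edgeR quasi-likelihood test with Benjamini-Hochberg adjusted p = 5.9e-26) and 1.92-fold in Rbbp4Ins/Del (1.81-fold to 2.04-fold, adjusted p = 4.2e-22). Only the first passed the 2-fold limit, with log2 fold changes of -1.28 and -0.94.

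Fn1, which encodes the matrix glycoprotein fibronectin, was 1 of the 2 most abundant of these genes per exonic base in all 3 genotypes. It had 26599, 27638, and 27508 normalized counts in the control, 30447, 30097, and 30165 in Rbbp4Ins/Ins, and 27840.5, 27589, and 25988 in Rbbp4Ins/Del. Rbbp4Ins/Ins stood above both other lines, and Rbbp4Ins/Del overlapped the control. The rise in Rbbp4Ins/Ins was 11% (log2 fold change 0.15, standard error 0.0266, edgeR quasi-likelihood test with Benjamini-Hochberg adjusted p = 5.5e-06). In Rbbp4Ins/Del the 95% interval of the log2 fold change ran from -0.059 to 0.049 (edgeR quasi-likelihood test, Benjamini-Hochberg adjusted p = 0.86), and its sign depended on the processing.

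Snai1, the gene of the Snail repressor, had 35.1, 47.1, and 40.1 normalized counts in the control, 66.7, 58.7, and 56 in Rbbp4Ins/Ins, and 88.9, 71.3, and 64.8 in Rbbp4Ins/Del. All mutant libraries were above all control libraries. The increase was 1.86-fold in Rbbp4Ins/Del (log2 fold change 0.89, standard error 0.18, edgeR quasi-likelihood test with Benjamini-Hochberg adjusted p = 3.7e-05). It was 1.5-fold in Rbbp4Ins/Ins (log2 fold change 0.59, standard error 0.187, edgeR quasi-likelihood test with Benjamini-Hochberg adjusted p = 0.0059), close to the threshold. The Rbbp4Ins/Ins call was lost without control replicate 1 (log2 fold change 0.48, adjusted p = 0.045), without control replicate 3 (0.59, adjusted p = 0.013), without Rbbp4Ins/Ins replicate 1 (0.52, adjusted p = 0.036), all by edgeR's quasi-likelihood test, and under DESeq2 (0.58, adjusted p = 0.023).

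Snai2, the gene of the related repressor Slug, was near the limit of detection. Its normalized counts were 5.13, 14.7, and 13 in the control, 6.84, 11.3, and 13.7 in Rbbp4Ins/Ins, and 11.2, 8.12, and 10.4 in Rbbp4Ins/Del, and the 3 genotypes overlapped. With so few reads the 95% intervals of the log2 fold change were wide, from -0.87 to 0.82 in Rbbp4Ins/Ins and from -0.96 to 0.76 in Rbbp4Ins/Del, and neither passed the test (edgeR quasi-likelihood test, Benjamini-Hochberg adjusted p = 0.96 and 0.84). Changes within these bounds were not detectable at this depth.

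Twist1 had 94.9, 93.2, and 106 normalized counts in the control, 41.9, 44, and 44.4 in Rbbp4Ins/Ins, and 40.9, 40.6, and 40.5 in Rbbp4Ins/Del. The mutant libraries lay within a narrow range, all below the control. Twist1 fell 2.25-fold in Rbbp4Ins/Ins (log2 fold change -1.17, standard error 0.158, edgeR quasi-likelihood test with Benjamini-Hochberg adjusted p = 3.1e-08) and 2.4-fold in Rbbp4Ins/Del (log2 fold change -1.26, standard error 0.161, adjusted p = 7.5e-09).

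Zeb1 and Zeb2 encode related repressors with paired zinc finger clusters, and of the pair only Zeb2 was called. Zeb1 had 240.2, 212.7, and 207.9 normalized counts in the control, 235.2, 253.9, and 254.8 in Rbbp4Ins/Ins, and 239.2, 218.4, and 232.6 in Rbbp4Ins/Del. These ranges overlapped, and the log2 fold changes of Zeb1, 0.16 (95% interval -0.02 to 0.34) and 0.05 (-0.13 to 0.24), did not pass edgeR's quasi-likelihood test (Benjamini-Hochberg adjusted p = 0.11 and 0.61). Zeb2 had 207.75, 198, and 187.3 normalized counts in the control, 18, 25.95, and 21.1 in Rbbp4Ins/Ins, and 26.6, 20.8, and 18.5 in Rbbp4Ins/Del. No mutant library came near the control level of Zeb2.

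The fall of Zeb2 was 9.23-fold in Rbbp4Ins/Ins, with a 95% interval from 7.34-fold to 11.6-fold (log2 fold change -3.21, standard error 0.163, edgeR quasi-likelihood test with Benjamini-Hochberg adjusted p = 6.4e-20). In Rbbp4Ins/Del it was 8.95-fold, from 7.12-fold to 11.3-fold (log2 fold change -3.16, standard error 0.163, edgeR quasi-likelihood test with Benjamini-Hochberg adjusted p = 7.2e-20). Zeb2 ranked 80th and 100th from the lowest log2 fold change among the 12712 genes. The level of Zeb2 per exonic base was 46.3% ± 1.71 of that of Zeb1 in the control (SD, n = 3), 4.49% ± 0.691 in Rbbp4Ins/Ins (SD, n = 3), and 4.9% ± 0.811 in Rbbp4Ins/Del (SD, n = 3).

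**Figure D3:**
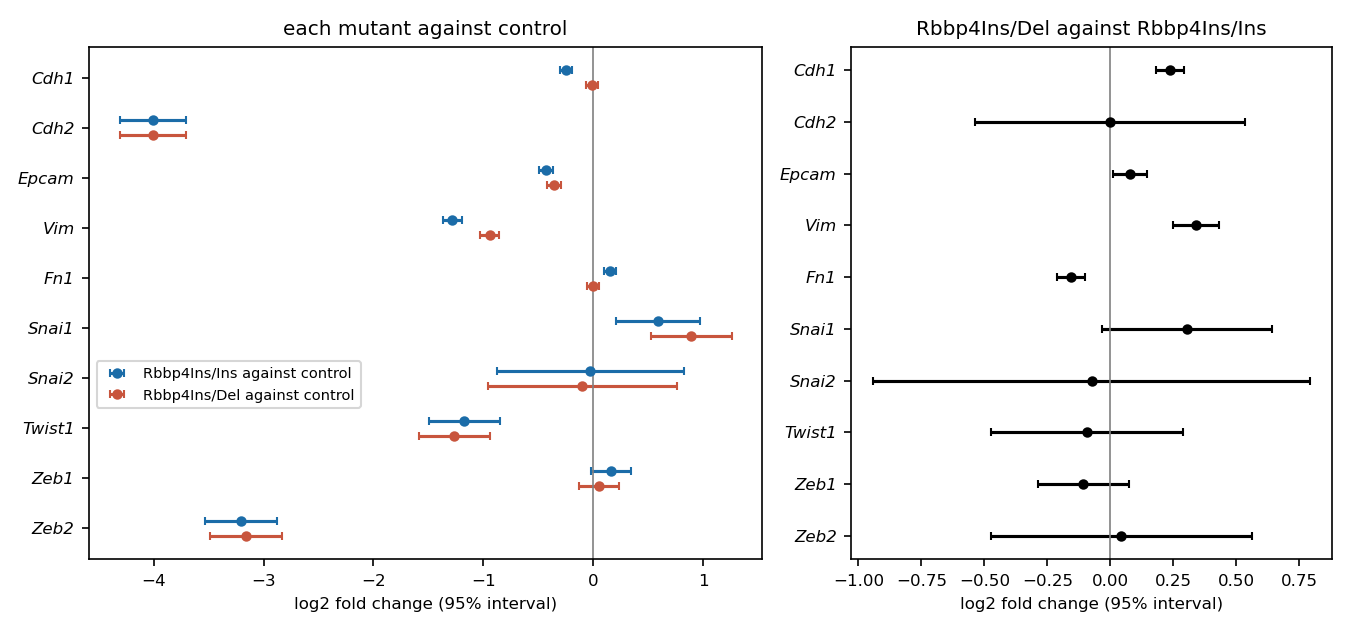
Log2 fold change with its 95% interval (horizontal axes) for each gene, on the left for Rbbp4Ins/Ins and Rbbp4Ins/Del against the control and on the right for Rbbp4Ins/Del against Rbbp4Ins/Ins, both from edgeR's quasi-likelihood fit. Cdh2 lies at -4.01 in both mutants and Zeb2 at -3.21 and -3.16, while on the right the intervals of Cdh1, Vim, and Fn1 lie clear of 0 and pass the test.

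The comparison of Rbbp4Ins/Del with Rbbp4Ins/Ins asks whether the mutant lines differ in these genes. Each line is 1 clone, so alleles and clones cannot be told apart. Of the 10 genes 3 were called, where 10.8% of all tested genes were (6.17% higher and 4.64% lower). The libraries of the mutants did not overlap for 5 of the 10 (Cdh1, Epcam, Vim, Fn1, and Twist1), against 34.1% of all tested genes. Vim was 1.27-fold higher in Rbbp4Ins/Del (log2 difference 0.34, standard error 0.0459, edgeR quasi-likelihood test with Benjamini-Hochberg adjusted p = 5.2e-07). Cdh1 was 1.18-fold higher (log2 difference 0.24, standard error 0.0272, adjusted p = 2.4e-08 by the same edgeR test). Fn1 was 10.2% lower (log2 difference -0.16, standard error 0.0266, adjusted p = 3.4e-05 by the same edgeR test). Rbbp4 RNA moved with Cdh1 across the 3 lines, being lower in Rbbp4Ins/Ins alone, and its part in the result was not tested.

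For the other 7 genes, the difference between the mutants did not pass the test, within intervals that leave room for one. The log2 difference was -0.00 for Cdh2 (95% interval -0.54 to 0.53), 0.04 for Zeb2 (-0.48 to 0.56), and -0.09 for Twist1 (-0.47 to 0.29). Epcam was at 0.08 (0.01 to 0.14) and missed the threshold (edgeR quasi-likelihood test, Benjamini-Hochberg adjusted p = 0.099). Snai1 was at 0.30 (-0.03 to 0.64), Zeb1 at -0.11 (-0.29 to 0.07), and Snai2 at -0.07 (-0.94 to 0.79).

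To compare levels between genes, reads were expressed as RPKM, the usual scaling by exonic length in kilobases and by the total counted reads of the library. In RPKM the control had Cdh1 at 168, Fn1 at 129, Epcam at 106, Vim at 30.8, Twist1 at 3.32, Cdh2 at 2.06, Snai1 at 1.39, Zeb1 at 1.18, Zeb2 at 0.547, and Snai2 at 0.299. Neighbours in this order did not overlap between libraries, except for Snai1 and Zeb1. In Rbbp4Ins/Ins, Fn1 at 141.4 and Cdh1 at 140.5 overlapped at the top, whereas in Rbbp4Ins/Del Cdh1 at 165 stood above Fn1 at 127. Snai1, at 2.04 in Rbbp4Ins/Ins and 2.52 in Rbbp4Ins/Del on this length-scaled level, became the highest of the 5 transcription factor genes, ahead of Twist1 at 1.46 and 1.36. Cdh2, at 0.127 and 0.125, and Zeb2, at 0.0594 and 0.06, took the lowest places in both mutants, below Snai2 at 0.287 and 0.268.

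**Figure D4:**
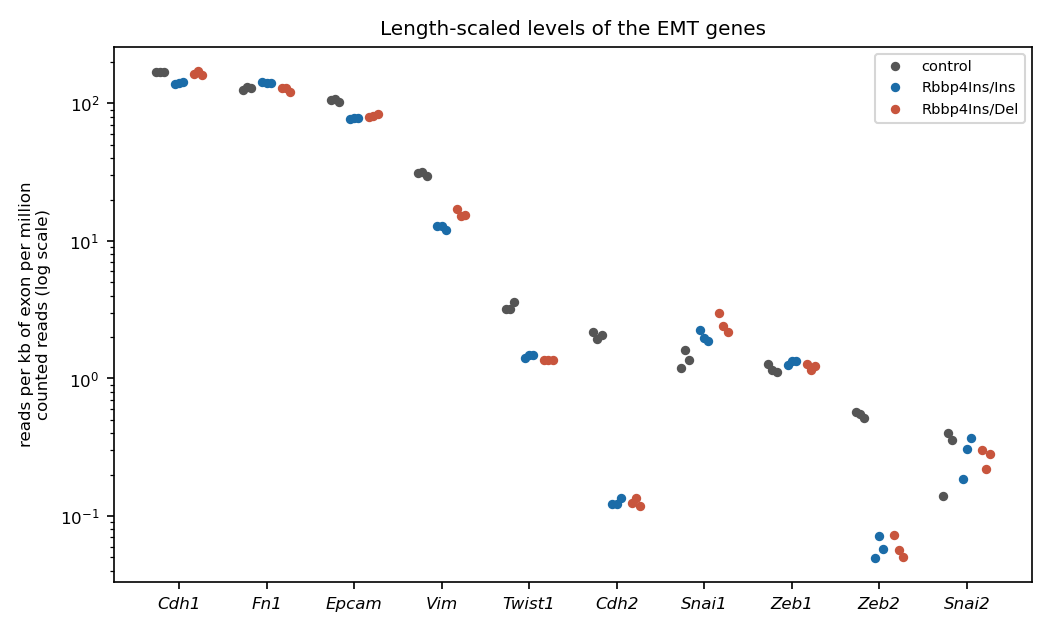
Length-scaled level (RPKM over counted reads, log scale) of the 10 genes in each library, ordered by the control mean; points are libraries and colors are genotypes. Cdh1, Fn1, and Epcam have the highest levels in all 3 genotypes, and the mutant points of Cdh2 and Zeb2 drop below those of Snai2.

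Across the 9 libraries, the genes whose log2 normalized counts correlated best with Cdh2 were Nhsl1 (Pearson r = 0.9996), Xpo7 (r = 0.9996), and Flna (r = 0.9994). For Vim, Gbx2 (r = 0.9974) and Rdh10 (r = 0.9955) were among the best, and for Cdh1 they were Ceacam1 (r = 0.9857), Rbm5 (r = 0.9847), and Rbbp4 (r = 0.9763). With 3 genotypes of 3 libraries, such values largely describe 3 group means and are given without a test. The likeness is one of pattern and not of size, since Nhsl1 had log2 fold changes of -1.66 and -1.67 where Cdh2 had -4.01 and -4.01.

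Other genes of the EMT program were counted from lists of known function. The lists were chosen with earlier results of these data known, so an excess over all tested genes is only descriptive. Each count is to be read against all tested genes, of which 29% rose and 29.4% fell in Rbbp4Ins/Ins and 30.6% rose and 31.9% fell in Rbbp4Ins/Del. Of 28 mesenchymal markers, 25 were tested, and 21 were lower and 2 higher in Rbbp4Ins/Ins, with 20 lower and 3 higher in Rbbp4Ins/Del. Over 2-fold falls numbered 19 and 17 of the 25, against 8.96% and 10.2% of all tested genes. Their median log2 fold change was -1.96 in Rbbp4Ins/Ins and -2.03 in Rbbp4Ins/Del. Acta2, smooth muscle actin, fell from a mean of 863 normalized counts to 14 and 14.1, Tagln, which encodes the actin-binding protein transgelin, from 1994 to 72.4 and 32.5, and Col1a2, a chain of type I collagen, from 250 to 6.43 and 9.28. Thy1, a surface glycoprotein gene of fibroblasts and other cells, rose from 45.7 to 245.7 and 311.6 normalized counts.

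All 26 epithelial markers were tested, and 14 were lower and 8 higher in Rbbp4Ins/Ins, against 15 lower and 4 higher in Rbbp4Ins/Del, with median log2 fold changes of -0.58 and -0.63. The 8 rises in Rbbp4Ins/Ins were near the background of 29%, and the falls compare with 29.4% and 31.9% of all tested genes. Falls of over 2-fold numbered 10 and 12 of the 26, against 8.96% and 10.2% of all tested genes. The simple keratin genes Krt8 and Krt18 fell from means of 1503 and 2091 normalized counts to 234 and 381 in Rbbp4Ins/Ins and to 187 and 266 in Rbbp4Ins/Del. Dsc2, a desmosomal cadherin gene, fell from 258 normalized counts to 91.1 and 60.8. Of 8 tested regulators of the epithelial state, 3 rose and 3 fell in each mutant, not far from the background. Epithelial and mesenchymal markers thus both held more falls than rises, as Epcam and Vim did.

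Of 17 other listed cadherin genes, 10 were tested, and 6 fell and 1 rose in Rbbp4Ins/Ins, with 6 falls and 2 rises in Rbbp4Ins/Del. Beside these, 58.4% and 62.5% of all tested genes were called in either direction. Cdh10 and Cdh9 fell with Cdh2, from means of 77.5 and 211 normalized counts to 8.44 and 48.6 in Rbbp4Ins/Ins and to 9.67 and 46.3 in Rbbp4Ins/Del. Cdh4, the gene of R-cadherin, moved the other way, from 59.3 to 291.5 and 367. Among 10 genes of catenins, nectins, and their partners, which join cadherins to actin or assist at the same junctions, 7 fell and 1 rose in each mutant, where 29.4% and 31.9% of all tested genes fell. Plakoglobin (Jup) had log2 fold changes of -0.85 and -0.89, p120 catenin (Ctnnd1) of -0.50 and -0.43, and beta-catenin (Ctnnb1) of 0.08 and 0.16, all past the threshold.

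Of 6 fibronectin receptor genes, 4 fell and 1 rose in each mutant, where 29.4% and 31.9% of all tested genes fell. The integrin subunit gene Itgb1 fell from a mean of 7967 normalized counts to 3609 and 3776, while its partner Itga5 rose from 1459 to 2235 and 2772. In the TGF-beta pathway, a main inducer of EMT, 7 of 16 tested genes fell and 2 rose in Rbbp4Ins/Ins, and 10 fell and 2 rose in Rbbp4Ins/Del. With 58.4% and 62.5% of all tested genes called, the count in Rbbp4Ins/Ins is at the background. The ligand gene Tgfb2 fell from 181 normalized counts to 6 and 10.5, and Ltbp1, which encodes a latent TGF-beta binding protein, from 546 to 181 and 206. Tgfb1 rose, with log2 fold changes of 0.55 and 0.74. Of 9 other EMT-inducing transcription factor genes only 4 had enough reads to be tested, of which Klf8 rose (0.82 and 1.03) and Tcf3 (-0.21 and -0.32) and Snai3 (-0.68 and -0.61) fell on the log2 scale. Of 6 tested primitive streak genes, 2 rose and 2 fell in each mutant, which is close to the background.

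**Figure D5:**
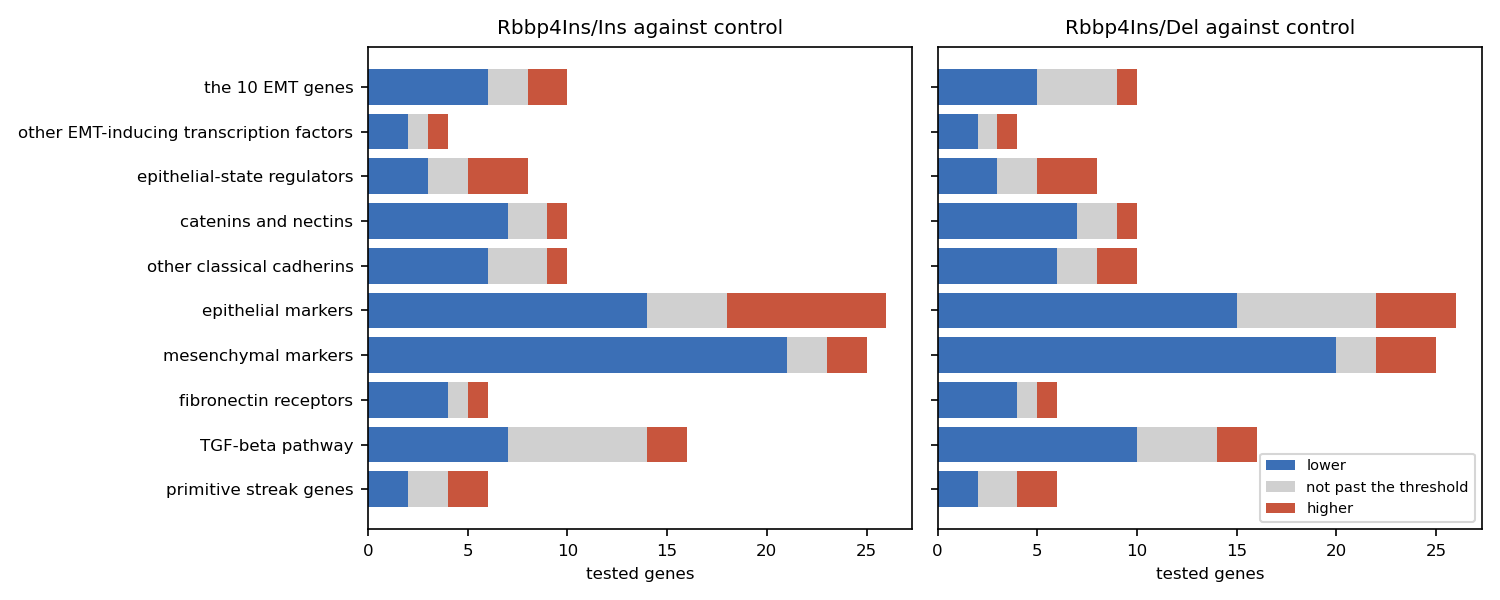
Number of tested genes in each list (horizontal axes) that were lower, higher, or not past the threshold in Rbbp4Ins/Ins (left) and Rbbp4Ins/Del (right) against the control (edgeR's quasi-likelihood test). Mesenchymal markers show 21 and 20 lower genes of 25, and the epithelial markers show 14 and 15 lower genes of 26.

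Markers of other cell types that such cultures could hold were summed in each library. The summed normalized count of 6 neural progenitor markers, a cell type that expresses Cdh2 and Vim, was 3468 to 3534 in the control, 1692 to 1824 in Rbbp4Ins/Ins, and 2033 to 2157 in Rbbp4Ins/Del. Of the 5 tested, 3 fell (Pax6, Nes, and Ncam1) and 1 rose (Tubb3) in Rbbp4Ins/Ins. In Rbbp4Ins/Del, 2 fell (Pax6 and Nes) and 1 rose (Tubb3), and Sox1 was called in neither mutant. Of all tested genes, 29.4% and 31.9% fell. For 10 fibroblast markers the sum was 634 to 743 in the control, 282 to 303 in Rbbp4Ins/Ins, and 356 to 392 in Rbbp4Ins/Del. The mutant sums were mostly Thy1, which rose from a mean of 45.7 normalized counts to 245.7 and 311.6, whereas Col1a1 fell from 287 to 17 and 24.4 and Col1a2 fell as given above. Fap was at 0 in all control libraries. Of the 10 fibroblast markers, 2 in the control, 6 in Rbbp4Ins/Ins, and 5 in Rbbp4Ins/Del had at most 3 reads in any library. Primitive endoderm markers (7 genes) summed to 371 to 399, 210 to 271, and 316 to 346 in the same order of lines. Of the 6 tested, 2 fell (Gata4 and Dab2) and 1 rose (Sox7) in Rbbp4Ins/Ins, and 2 fell (Gata4 and Dab2) and 4 rose in Rbbp4Ins/Del, with Dab2 going from 265 to 104 and 109 normalized counts. Trophectoderm markers (6 genes) summed to 1490 to 1547, 1848 to 1956, and 1150 to 1229, most of it Tfap2c at means of 1259.6, 1763, and 1086. Of the 5 tested, 3 fell and 1 rose (Tfap2c) in Rbbp4Ins/Ins, and 4 fell in Rbbp4Ins/Del. Of the 10 ESC markers, 7 rose and 2 fell in Rbbp4Ins/Ins, and 6 rose and 1 fell in Rbbp4Ins/Del, beside the 29% and 30.6% of all tested genes that rose. The part of these cell types in the falls of Cdh2, Zeb2, Twist1, and Vim was not tested.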

How the data were processed

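RNA-seq of control, Rbbp4Ins/Ins, and Rbbp4Ins/Del ESCs was analysed, with 3 libraries per genotype, grouped by the genotype label. The authors aligned reads to mm10 with STAR (v2.7.3) and counted them per gene with HTSeq, whose version, annotation, and strand setting are not given in the sources used here. The deposited values are raw counts for each gene symbol, as whole numbers. The study tested them with DESeq2 (v1.22.2).

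With edgeR 4.0.16 (R 4.3.3), libraries were scaled by TMM factors of 0.993 to 1.02, genes were filtered with filterByExpr (14125 kept of 20953 with reads), and a quasi-likelihood model was fitted to all 9 libraries without covariates. P-values were adjusted by the Benjamini-Hochberg method, with a threshold of 0.01. Each standard error was derived from the F statistic, as the size of the log2 fold change over the root of F. Libraries of a genotype differed by more than sampling noise (chi-square per degree of freedom 1.87 to 4.62). Counting limits the precision of genes with few reads. On simulated counts, the fit recovered 81 of 87 genes changed 2-fold with a mean above 20 reads in each mutant contrast, with 3 and 2 false calls among 13906 genes. Of 92 genes changed 1.5-fold, it recovered 81 in Rbbp4Ins/Ins and 83 in Rbbp4Ins/Del. The simulation changed only a small share of genes, equally up and down, with dispersions from the same fit. In the data 58.4% and 62.5% of genes were called, so scaling and false calls under that load were not tested.

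The 10 genes, the gene lists, and the markers were chosen with earlier results of these data known. All 10 are named. A listed gene is named when called in both mutants in 1 direction with an absolute log2 fold change above 1 in both and a mean normalized count above 20, at most 4 per list and direction, and catenin, fibronectin receptor, and TGF-beta genes may also be named. Klf8, Tcf3, and Snai3 fall outside this rule and were chosen after their values were seen. The cell type markers Ncam1, Sox1, Tfap2c, and Fap also fall outside it. Genes most alike were ranked by Pearson correlation of log2(normalized count + 1). Some genes that these rules select are not reported here. Tables were made with Python 3.11.15 and pandas 2.3.3 and figures with matplotlib 3.10.9. The alternatives were DESeq2 1.42.0, DESeq2 size factors, scaling by total counts, no filter, fits of only the groups compared, a replicate block, and each library left out in turn.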

Additional observations from a re-analysis of the deposited data

Results flagged for a closer look

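For 3 of the 10 genes, the change from the control differed between the mutant lines. The test was of the difference itself, edgeR's quasi-likelihood test of Rbbp4Ins/Del against Rbbp4Ins/Ins with Benjamini-Hochberg adjustment. The difference in log2 fold change, Rbbp4Ins/Del minus Rbbp4Ins/Ins, was 0.236 for Cdh1 (adjusted p = 2.4e-08), 0.340 for Vim (adjusted p = 5.2e-07), and -0.156 for Fn1 (adjusted p = 3.4e-05), all from edgeR. For Cdh1 and Fn1 only Rbbp4Ins/Ins departed from the control by the test, with intervals in Rbbp4Ins/Del of -0.065 to 0.045 and -0.059 to 0.049 on the log2 scale. Vim was lower than the control in both mutants and lowest in Rbbp4Ins/Ins. Each mutant line is 1 clone, so a difference between alleles and a difference between clones cannot be told apart.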

How the results depend on the processing

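Under 15 alternatives per comparison, 419 of the 450 recomputed log2 fold changes of the 10 genes kept their direction and their side of the threshold, 4 lost the call, and 27 changed sign. The 4 lost calls were all Snai1 in Rbbp4Ins/Ins, and every change of sign was in a value that was not called. Genes called numbered 7430 to 8471 in Rbbp4Ins/Ins and 8093 to 9118 in Rbbp4Ins/Del, and of the 10 genes 7 to 8 and 6 to 6. Between the mutants, 1527 genes were called, and 988 to 1646 with 1 library left out, the counts of 1014 without Rbbp4Ins/Ins replicate 1 and 988 without Rbbp4Ins/Del replicate 2 being over 1.5 times lower, with 1 fewer library; 3 of the 10 genes were called throughout. With 1 library left out, log2 fold changes spanned 0 for Snai2 (-0.412 to 0.269 in Rbbp4Ins/Ins, -0.487 to 0.195 in Rbbp4Ins/Del, -0.346 to 0.160 between the mutants), for Cdh1 (-0.033 to 0.006) and Fn1 (-0.023 to 0.027) in Rbbp4Ins/Del, and between the mutants for Cdh2 (-0.059 to 0.049) and Zeb2 (-0.111 to 0.182). Fn1 in Rbbp4Ins/Del was at 0.003 under DESeq2 and under DESeq2 size factors and at 0.008 with only the groups compared, where Cdh1 was at 0.004. Between the mutants, Cdh2 was at 0.007 under DESeq2 and 0.009 under DESeq2 size factors. Correlations of deviations from the group means were -0.0277 to 0.0559 between same-numbered libraries and -0.0566 to 0.0619 between the others. These values show no pairing by number, but they cannot exclude that same-numbered libraries were handled together. With the replicate block, 8225, 8795, and 1499 genes were called in the 3 comparisons, and Cdh2 between the mutants was at 0.007. The cause of these shifts was not tested.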
